A study of Mus musculus with 6 samples.

Results

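The genes described here encode chaperones of the endoplasmic reticulum (ER) and the sensors, folding enzymes and degradation machinery of the unfolded protein response. They number 32 of the 55538 genes in the table and were chosen by name, for what they do. Earlier results of these data were known when they were chosen. Each of the 32 symbols matched 1 Ensembl gene, and all 32 averaged 1 or more across libraries and so entered the test. They were split into 4 sensors and transcription factors, 16 lumenal chaperones and folding enzymes, 10 genes of ER-associated degradation and 2 of translocation into the ER.

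The cells, labelled as neurons, were taken from embryonic cortex (C57BL/6, day 14.5) and were rested for 2 h in medium with serum before the experiment. Total RNA was compared in 3 groups of 2 libraries: control cells kept at 37 °C for 60 min, cells at 42 °C for 15 min and cells at 42 °C for 60 min. All groups share this strain, culture and rest, and no control of 15 min is described. The labels do not say how many embryos gave the cells or whether the 2 libraries of a group came from separate cultures, so p-values measure only the spread between these libraries.

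Values are a normalised signal per gene that is scaled to transcript length, so levels can be compared between genes. The libraries are named s1 and s2 within each group, and values are given in that order. Changes and ratios to control were estimated on the scale of log2(signal + 1). Depth is unknown, and with 2 libraries a group the precision rests on the number of libraries. The 8 neuronal markers were at 1 or above in all 6 libraries, with sums of 1606 to 2298. The 8 markers of progenitors and radial glia were at 1 or above as well and summed to 2345 to 3347, so the cultures also held progenitor transcripts. Some of these sums moved with the groups. Progenitor sums were 2345 to 2637 in control and 2690 to 3347 in the heated libraries. Vim was the largest part of them, with 1413 and 1786 in control and 2180 and 1945 at 60 min. Fabp7 and Slc1a3 were also above both controls at 60 min. Sox2 (142 and 128, then 77.7 and 62.8 at 60 min) and Eomes (89.9 and 102, then 45.8 and 40.6) were below both. Pax6, Hes5 and Nes overlapped with control. Endothelial and mural sums were 22.4 to 25.6 in control and 14.1 to 18.8 in the heated libraries. Neuronal sums were 1606 and 2156 in control, 2237 and 2298 at 15 min and 1926 and 1936 at 60 min. Their part in the differences with heat was not tested. Sums ran from 256 to 506 for erythroid genes, 89.3 to 136 for astrocyte genes and 6.94 to 60.9 for choroid plexus genes. They ran from 7.59 to 25.6 for fibroblast, microglial, endothelial and oligodendrocyte genes. Control s1 stood apart: 29309 genes were at 1 or above, against 19035 to 21796 elsewhere, and its abundant genes were low, with a median ratio to the mean of the libraries of 0.893 against 0.961 to 1.08. Control s2 had the highest share of mitochondrial signal, 16.3% against 9.08% to 13.3% in the other libraries. In bulk RNA, fewer cells of a type and less RNA per cell cannot be told apart.

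The ER folds secreted and membrane proteins. When unfolded proteins build up, the chaperone BiP leaves 3 membrane sensors, which the genes Ern1 (IRE1), Atf6 and Eif2ak3 (PERK) encode. IRE1 splices Xbp1 mRNA into the form that encodes an active transcription factor, and ATF6 is cut in the Golgi to release one. Both raise the transcription of chaperones and of degradation genes, while PERK phosphorylates eIF2α and slows translation. In the cytosol, heat acts through a different regulator, HSF1. The table holds 1 value per gene, so spliced and unspliced Xbp1 were not separated.

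ATF6 and its partner NF-Y act through the ER stress response element, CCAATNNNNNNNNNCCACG, and the promoters of these genes were searched for it on both strands. RefSeq windows of build GRCm38.p6, from 250 bases before to 50 after the start of transcription, were held for 28 of the 32 genes (not Atf6, Hyou1, Manf or Derl1). An exact element stood in 9 of the 28 (32.1%), against 37 of 27025 genes in all (0.137%). The elements are shown because the share of genes with one was higher here than over all genes, though 19 of the 28 held no exact element. The genes were chosen by name for their part in this response, so the higher share describes that choice and is not a test. Each is written 5′ to 3′ with its coordinates and strand, and capitals mark CCAAT and CCACG:
Hspa5 (chr2:34772025-34772043, + strand): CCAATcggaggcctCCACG
Hsp90b1 distal (chr10:86705638-86705656, - strand): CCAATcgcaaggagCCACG
Hsp90b1 proximal (chr10:86705533-86705551, + strand): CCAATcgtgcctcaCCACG
Calr (chr8:84847075-84847093, + strand): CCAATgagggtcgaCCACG
Canx (chr11:50325800-50325818, - strand): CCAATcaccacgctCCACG
Pdia6 (chr12:17266491-17266509, + strand): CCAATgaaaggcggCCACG
Dnajc3 (chr14:118937827-118937845, + strand): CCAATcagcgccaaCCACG
Creld2 (chr15:88819520-88819538, - strand): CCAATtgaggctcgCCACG
Derl3 (chr10:75893242-75893260, - strand): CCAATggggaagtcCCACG
Syvn1 (chr19:6046532-6046550, + strand): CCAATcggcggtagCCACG

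All 10 lie before the start of transcription. The 1 nearest to it belongs to Syvn1, 44 to 26 bases before the start, and the Hspa5 element lies 65 to 47 bases before it. CCACG alone, which overlaps the longer element where that is present, is in the windows of 23 of the 28 genes and in 35.5% of all genes. A heat shock element of 3 units (GAANNTTCNNGAA or TTCNNGAANNTTC) was in the windows of 0 of the 28 genes and of 0.662% of all genes. These letters were searched only in this window, and a match is not evidence of binding.

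The 150 bases before the start are shown for Hspa5 (chr2:34771940-34772089, + strand), the best known target of the response, and for Syvn1 (chr19:6046426-6046575, + strand), which had the smallest p of the 32 genes after heat. Capitals again mark CCAAT and CCACG, but only within the exact element. Other copies of CCAAT, on either strand, are left in lower case:
Hspa5: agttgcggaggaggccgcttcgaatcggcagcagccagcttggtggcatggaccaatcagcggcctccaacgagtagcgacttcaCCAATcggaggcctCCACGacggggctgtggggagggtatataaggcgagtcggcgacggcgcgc
Syvn1: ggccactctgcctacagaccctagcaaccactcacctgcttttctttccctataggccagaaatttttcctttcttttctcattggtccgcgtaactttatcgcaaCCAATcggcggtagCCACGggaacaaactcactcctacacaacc

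Neither 15 nor 60 min at 42 °C changed any of the 32 genes past the threshold. At 60 min, as deposited, the lumenal chaperones and folding enzymes were slightly higher than control at the median (log2 change 0.16) and the sensors (−0.26) and degradation genes (−0.16) lower. The median was −0.12 over all genes tested and 0.062 over those with a mean of at least 20. Degradation genes were at 0.025 with median-of-ratios scaling factors over all genes above 0. Sensors were at −0.64 without control s1 and 0.20 without control s2. The smallest p were those of Syvn1 and Herpud1, of the HRD1 ubiquitin ligase complex, which were lower. The abundant lectin chaperone Canx and the disulfide isomerase Pdia3 were at 1.34 times control, and the isomerase P4hb at 1.28 times. BiP mRNA (Hspa5) was at 0.695 times control.

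**Figure D1:**
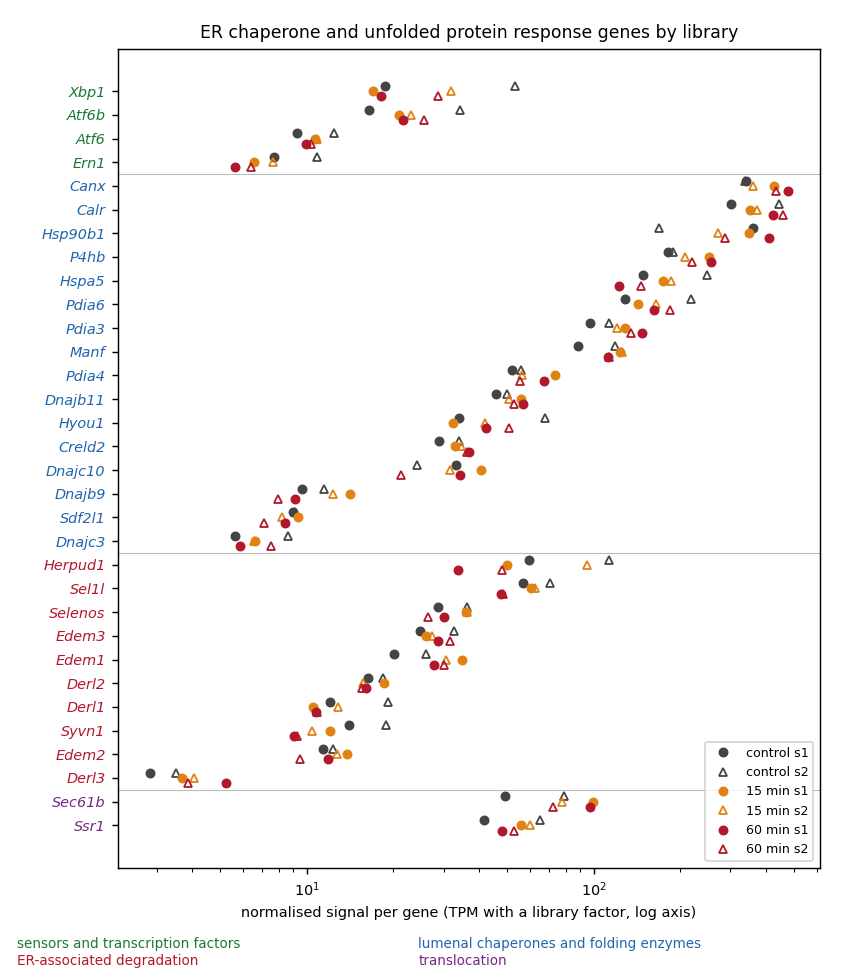
Normalised signal of each of the 32 genes (log axis) in the 6 libraries, ordered by class and mean level. Filled circles are s1 and open triangles s2 libraries of control, 15 min and 60 min. Canx, Calr and Hsp90b1 are the highest and Derl3 the lowest, and the control libraries of Xbp1, Hsp90b1 and Herpud1 lie farther apart than most.

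The comparison of 60 min with control asks which of these transcripts differed after the full heat exposure. limma's test across all genes passed 0 of the 32 at a Benjamini-Hochberg adjusted p of 0.05, and 0.041% of the 21954 genes tested (0.0273% higher and 0.0137% lower). The smallest adjusted p was 0.461. At an unadjusted p under 0.05 the test found 2 of the 32, both lower, against 8.34% of all genes (5.41% lower and 2.92% higher). Both 60 min libraries lay above both controls for 7 of the 32 (21.9%) and below both for 9 (28.1%), against 12.8% and 19.8% of all genes, or 32.6% in either direction. As deposited, 14 of the 32 were higher at all and 37.3% of all genes. The split depends on scaling: 19 were higher with quantile normalisation and 23 with median-of-ratios factors over all genes above 0. Those factors put the median over all genes tested at 0.043. The median log2 change was −0.049 over the 32 genes, −0.12 over all genes tested and 0.062 over the 6772 with a mean of at least 20. The 95% interval of a gene's change reached 0.42 to 1.29 on the log2 scale to each side, with a median of 0.53. Smaller changes could not be told from none. The intervals are not adjusted for the number of genes tested. Syvn1 and Herpud1, whose intervals left out 0, did not pass the adjusted threshold either.

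The sensors and Xbp1 had a median log2 change of −0.26 at 60 min, with 4 of 4 lower. The median over all genes tested was −0.12, and 37.3% of them were higher. Across the alternatives 1 to 4 of the 4 were lower, with 2 under median-of-ratios factors over all genes above 0 or quantile normalisation and 1 without control s2. Ern1, the IRE1 kinase and RNase, had 7.73 and 10.8 in control, 6.56 and 7.66 at 15 min and 5.62 and 6.42 at 60 min. Its 3 groups did not overlap and lay in the order of exposure. The log2 change at 60 min was −0.54 ± 0.24 (SE; 95% interval −1.12 to 0.049), with an adjusted p of 0.647.

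Atf6 had 9.25 and 12.4 in control, 10.7 and 10.9 at 15 min and 9.96 and 10.4 at 60 min. The heated libraries lay between the controls. Atf6b, its paralogue, had 16.5 and 34.3, then 21.0 and 23.0, then 21.6 and 25.6, and again the heated libraries lay inside the control range. The log2 changes at 60 min were −0.070 ± 0.22 for Atf6 and −0.021 ± 0.34 for Atf6b (SE).

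Xbp1 varied more within groups than between them. It had 18.7 and 53.2 in control, 17.04 and 31.8 at 15 min and 18.1 and 28.7 at 60 min. The s1 libraries of all 3 groups lay within 17.04 to 18.7, and the s2 libraries were higher in each group. Its change at 60 min was −0.46 ± 0.53 (SE), with a 95% interval of −1.74 to 0.83, the widest of the 32 genes.

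Among the lumenal genes, 10 of 16 were higher at 60 min and 6 lower, with a median log2 change of 0.16. Beside them, 37.3% of all genes tested were higher, and genes with a mean of at least 20 had a median of 0.062. Hspa5 encodes BiP, the Hsp70 of the ER. It had 149 and 249 in control, 174 and 186 at 15 min and 122 and 146 at 60 min. Both 60 min libraries were lower than both controls and both 15 min libraries, while those at 15 min lay between the controls. The log2 change at 60 min was −0.52 ± 0.28 (SE; 95% interval −1.19 to 0.14), with an adjusted p of 0.709. It was −0.89 without control s1 and −0.16 without control s2.

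Hsp90b1 encodes GRP94, the Hsp90 of the ER. It had 361 and 169 in control, 349 and 272 at 15 min and 408 and 287 at 60 min. One library, 60 min s1, was above both controls and the other heated libraries lay between them, and s1 was above s2 in each group, the reverse of Hspa5. The ratio of Hspa5 to Hsp90b1 was 0.413 and 1.47 in the controls, 0.50 and 0.683 at 15 min and 0.299 and 0.507 at 60 min. The change of Hsp90b1 at 60 min was 0.47 ± 0.39 (SE), 1.01 without control s1 and −0.074 without control s2, so its direction rests on control s2, the library with the highest mitochondrial share. Hyou1, an Hsp110 that exchanges nucleotide on BiP, had 34.1 and 67.6, then 32.4 and 41.9, then 42.1 and 50.9. Its 60 min libraries lay between the controls.

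The lectin chaperones calnexin and calreticulin bind glycoproteins with trimmed sugars. Canx had 340 and 338 in control, 425 and 360 at 15 min and 475 and 434 at 60 min. Its groups did not overlap and were higher in the order of exposure, with a log2 change at 60 min of 0.42 ± 0.19 (SE; 95% interval −0.036 to 0.87; adjusted p = 0.644). Calr had 301 and 444, then 352 and 372, then 421 and 456, and its 60 min libraries overlapped with control.

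The disulfide isomerases form and rearrange disulfide bonds, and 4 of 4 were higher at 60 min (3 of 4 with quantile normalisation, with rescaling without mitochondrial and small RNA genes, without control s1 and without 60 min s2, where Pdia6 was lower). Pdia3, the isomerase that works with the lectins, had 97.4 and 113 in control, 129 and 121 at 15 min and 147 and 135 at 60 min, with no overlap between any of the groups. Its log2 change at 60 min was 0.42 ± 0.18 (SE; adjusted p = 0.618), and 0.25 ± 0.18 at 15 min. P4hb, the most abundant isomerase here, had 182 and 189, then 252 and 208, then 256 and 221, so all heated libraries were above both controls. Pdia4 and Pdia6 had log2 changes of 0.18 ± 0.21 and 0.054 ± 0.28 (SE) at 60 min, and their groups overlapped.

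J-domain proteins direct BiP to its clients. Dnajb9 (ERdj4), an XBP1 target that also holds BiP on IRE1, had 9.65 and 11.5 in control, 14.2 and 12.4 at 15 min and 9.09 and 7.97 at 60 min. Its 15 min libraries were above both controls and its 60 min libraries below both. Dnajb11 (ERdj3), the most abundant of the 4, had 45.9 and 50.0, then 55.7 and 50.6, then 56.9 and 53.0. All of its heated libraries were above both controls. Dnajc3 (p58IPK) and Dnajc10 (ERdj5, a reductase) had log2 changes of −0.062 ± 0.26 and −0.072 ± 0.30 (SE) at 60 min.

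Sdf2l1, Manf and Creld2 are small lumenal proteins induced by ER stress. Manf, a secreted neurotrophic factor and BiP partner, had 88.2 and 119 in control, 124 and 125 at 15 min and 112 and 113 at 60 min. Only the 15 min libraries were above both controls. Creld2 was above both controls at 60 min (log2 change 0.22 ± 0.18, SE), and Sdf2l1, at 7.08 to 9.36 over all libraries, was below both (−0.20 ± 0.21).

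ER-associated degradation pulls misfolded proteins back to the cytosol for the proteasome. Its 10 genes had a median log2 change of −0.16 at 60 min, with 7 lower and 3 higher (4 lower with median-of-ratios factors over all genes above 0). Of all genes tested 37.3% were higher, with a median of −0.12, or 0.062 over those with a mean of at least 20. Syvn1, Sel1l and Herpud1, grouped here as the HRD1 ligase complex, were lower at 60 min than in control and than at 15 min, without overlap. They kept that direction under each of the 19 alternatives run. The derlins and Selenos, grouped apart as derlins and partner, differed in direction at 60 min against control. In all 6 of the 32 genes lay below both other groups at 60 min without overlap, as did 12.2% of all genes. The other 3 were Ern1, Hspa5 and Dnajb9. Syvn1 encodes HRD1, the ubiquitin ligase of the complex. It had 14.02 and 18.9 in control, 12.1 and 10.4 at 15 min and 9.04 and 9.29 at 60 min. The groups did not overlap and were lower in the order of exposure. Its log2 change at 60 min was −0.77 ± 0.22 (SE; 95% interval −1.30 to −0.23), with an unadjusted p of 0.0124 and an adjusted p of 0.461 by limma. It was −0.97 without control s1 and −0.56 without control s2.

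Herpud1, a membrane protein that recruits the ligase complex and a known target of both ATF6 and the PERK arm, had the largest change of the 32 genes. It had 59.7 and 113 in control, 50.1 and 95.1 at 15 min and 33.6 and 48.1 at 60 min. Both 60 min libraries were below all 4 others, and s2 was above s1 in each group. The log2 change was −1.01 ± 0.42 (SE; 95% interval −2.02 to −0.0029), with an unadjusted p of 0.0495 and an adjusted p of 0.598 by limma. It was −1.47 without control s1 and −0.56 without control s2.

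Sel1l, the adaptor that holds HRD1 stable, had 57.0 and 70.5 in control, 60.7 and 62.7 at 15 min and 47.7 and 48.5 at 60 min. Here too both 60 min libraries were below all 4 others. Its log2 change was −0.39 ± 0.19 (SE; adjusted p = 0.67).

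The other degradation genes differed in direction. Derlins form part of the retrotranslocation channel. Derl1 was lower at 60 min (log2 change −0.46 ± 0.26, SE), Derl2 near control (−0.13 ± 0.20), and Derl3, the lowest of all 32 genes at 2.85 to 5.23, higher (0.40 ± 0.26). Selenos, a selenoprotein that binds the derlins, had 28.7 and 36.3 in control, 35.8 and 36.3 at 15 min and 30.2 and 26.6 at 60 min. Its 60 min libraries lay below both 15 min libraries. The EDEM proteins trim or recognise mannose on misfolded glycoproteins. Edem3 had 24.9 and 32.7, then 26.1 and 27.4, then 28.8 and 31.7, and the heated libraries lay within the control range. Edem1 had 20.2 and 26.2, then 34.7 and 30.5, then 27.8 and 30.0. All its heated libraries were above both controls, and it was highest at 15 min. Edem2 was at 9.52 to 13.8 over all libraries.

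The 2 translocation genes differed in direction at 60 min against control, while both were higher at 15 min than in control (0.48 ± 0.29 for Sec61b and 0.15 ± 0.25 for Ssr1, log2 change ± SE) and both lower at 60 than at 15 min (−0.066 and −0.20). Sec61b, a subunit of the protein-conducting channel, had 49.1 and 79.2 in control, 99.3 and 77.4 at 15 min and 96.8 and 72.4 at 60 min. The groups overlapped. Ssr1, a subunit of the translocon-associated protein complex, had a log2 change of −0.045 ± 0.25 (SE) at 60 min.

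**Figure D2:**
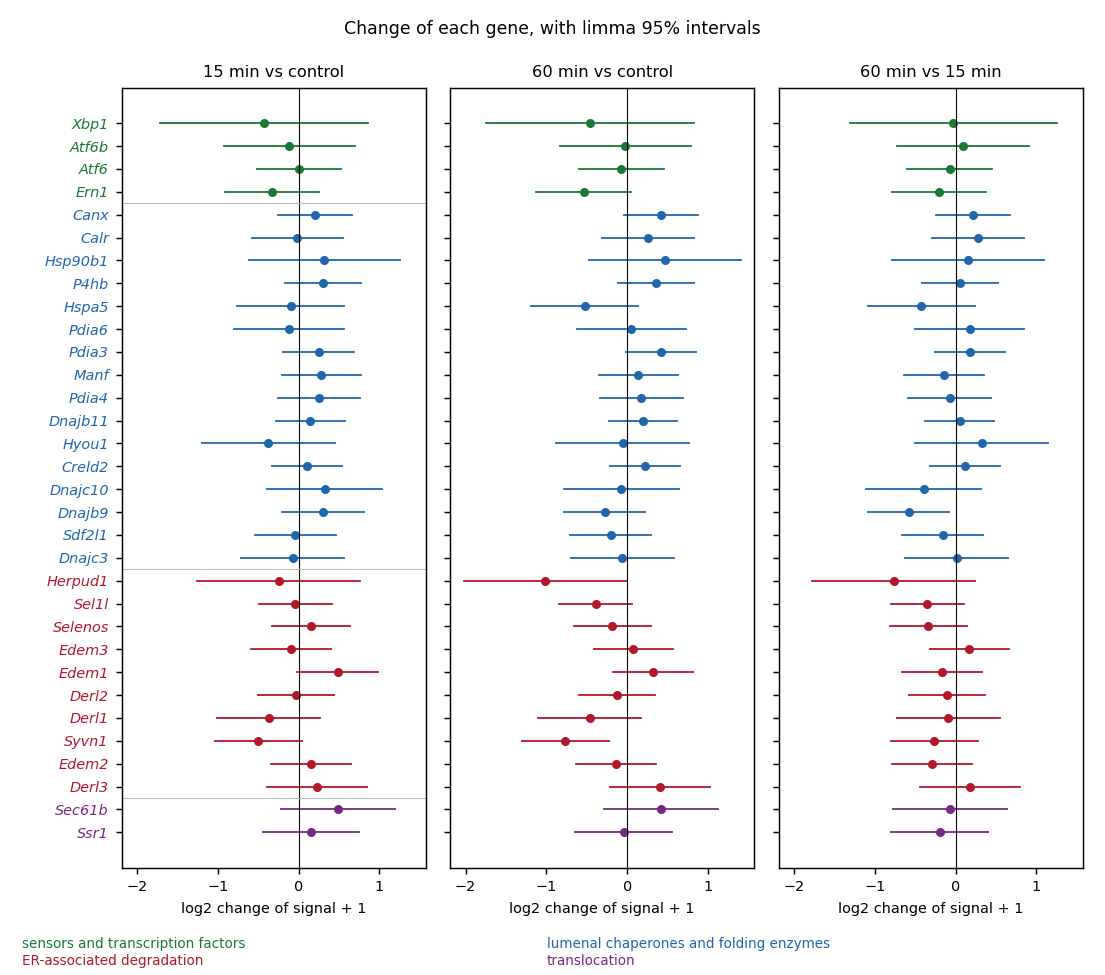
Log2 change of signal + 1 for each gene in the 3 comparisons, with points for limma's estimate and bars for the 95% interval, coloured by class. Most intervals span 0, and of the exceptions Syvn1 lies at −0.77 and Herpud1 at −1.01 at 60 min against control, and Dnajb9 at −0.58 between 60 and 15 min.

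The 15 min comparison asks what differed after a short exposure. limma passed 0 of the 32 genes and 0% of the 21954 tested, and the smallest adjusted p among the 32 was 0.747. At an unadjusted p under 0.05 it found 0 of the 32, against 3.95% of all genes (2.09% higher and 1.86% lower). The 15 min libraries were above both controls for 10 of the 32 (31.2%) and below both for 2 (6.25%), against 15.1% and 18.9% of all genes, or 34% in either direction. The 10 were Canx, P4hb, Pdia3, Pdia4, Dnajb9, Dnajb11, Manf, Derl3, Edem1 and Edem2, and the 2 were Ern1 and Syvn1. For 7 of the 10, control s1 was the lowest of the 6 libraries, as it was for 16 of the 32, and the abundant genes of that library were low. The part of control s1 in the count was not tested. As deposited 17 of the 32 were higher at all, against 40.1% of all genes; 27 were higher without control s2 and with median-of-ratios factors over all genes above 0, and 13 without control s1.

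Edem1 had the smallest p at 15 min, with a log2 change of 0.48 ± 0.21 (SE; 95% interval −0.014 to 0.98; unadjusted p = 0.0552; adjusted p = 0.747 by limma). Syvn1 followed at −0.50 ± 0.22. The class medians were 0.18 for lumenal genes, −0.033 for degradation genes, −0.22 for sensors and Xbp1 and 0.32 for translocation, beside −0.098 over all genes and 0.15 over those with a mean of at least 20. The comparisons of 15 and 60 min with control share both control libraries.

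The comparison of 60 with 15 min does not use the control libraries for its estimated changes, but its standard errors, intervals and p-values do. They rest on 1 spread per gene over all 6 libraries. The differences of s2 from s1 varied most in control, with an SD over the 32 genes of 0.451, against 0.30 at 15 min and 0.279 at 60 min. limma passed 0 of the 32 genes, and 0.0182% of all genes (0.0137% higher and 0.00455% lower). At an unadjusted p under 0.05 it found 1, Dnajb9, which was lower, against 6.19% of all genes (4.08% lower and 2.11% higher). The 60 min libraries were below both 15 min libraries for 12 of the 32 (37.5%) and above both for 6 (18.8%), against 22.6% and 25.9% of all genes, or 48.5% in either direction. The higher genes numbered 13 as deposited (50.1% of all genes), 8 with median-of-ratios factors over all genes above 0 and 19 with quantile normalisation. The change of Dnajb9 was −0.58 ± 0.21 (SE; 95% interval −1.09 to −0.078; unadjusted p = 0.0297; adjusted p = 0.745).

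The degradation genes had the lowest class median in this comparison, −0.22, with 8 of 10 lower. Syvn1, Sel1l, Herpud1, Selenos, Edem1 and Edem2 were lower without overlap (6 of 10, against 22.6% of all genes) and Edem3 was higher without overlap. Among the 16 lumenal genes the median was 0.052, with 10 higher. Hspa5 was lower by 0.43 ± 0.28 on the log2 scale (SE), and Calr and Canx had changes of 0.28 ± 0.24 and 0.21 ± 0.19, with both 60 min libraries above both at 15 min. The median over all genes was 0.00087, and −0.094 over those with a mean of at least 20.

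Across the 3 groups in order of exposure, Canx and Pdia3 were higher at each step without overlap and Ern1 and Syvn1 lower at each step. Those are 2 and 2 of the 32, and 1.37% and 2.48% of all genes were ordered so.

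**Figure D3:**
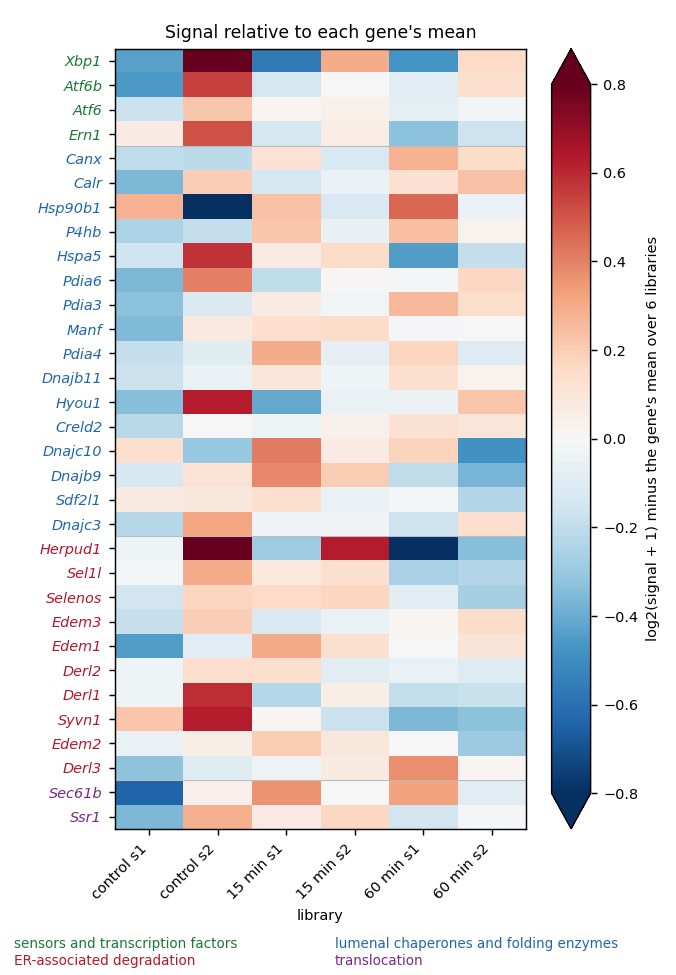
Signal of each gene in each library as log2(signal + 1) minus the gene's mean over the 6 libraries, from blue (lower) to red (higher), with the scale ending at 0.8 to each side. Control s1 is mostly blue and control s2 mostly red, and Herpud1, Sel1l and Syvn1 are blue in both 60 min libraries.

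Much of the variation lay between the 2 libraries of a group. In control, s2 was above s1 for 29 of the 32 genes (90.6%), against 41% of all genes tested and 64.7% of those with a mean of at least 20. At 15 and 60 min s2 was above s1 for 17 of the 32 in each group, against 51.6% and 46.9% of all genes and 43.4% and 38.7% of such abundant genes. For 14 of the 32 (43.8%), s2 was above s1 in all 3 groups, as it was for 16.9% of all genes and 26% of abundant genes, and for Hsp90b1, Canx and Dnajc10 s1 was above s2 in all 3. The 14 were the 4 sensors and transcription factors and Hspa5, Hyou1, Calr, Pdia6, Manf, Sel1l, Herpud1, Derl1, Edem3 and Ssr1. Xbp1 had the widest gap in control, 1.46 on the log2 scale, and gaps of 0.86 and 0.64 at 15 and 60 min. Herpud1 had gaps of 0.91, 0.91 and 0.50.

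Markers of cell types also differed between s1 and s2 libraries. Of the 8 neuronal markers 6 were higher in s2 in all 3 groups and 1 lower, and of the 8 progenitor and radial glia markers 0 were higher and 5 lower. Of the 5 choroid plexus markers 3 were higher in s2 in all 3 groups. Among these, Ttr, the transthyretin gene of this secretory epithelium, was at 1.68 to 2.80 in the s1 libraries and at 30.2 to 52.2 in the s2 libraries, while the other 4 markers were at 0.28 to 4.73 in all libraries. The part of the makeup of the cultures in the differences between s1 and s2 was not tested.

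**Figure D4:**
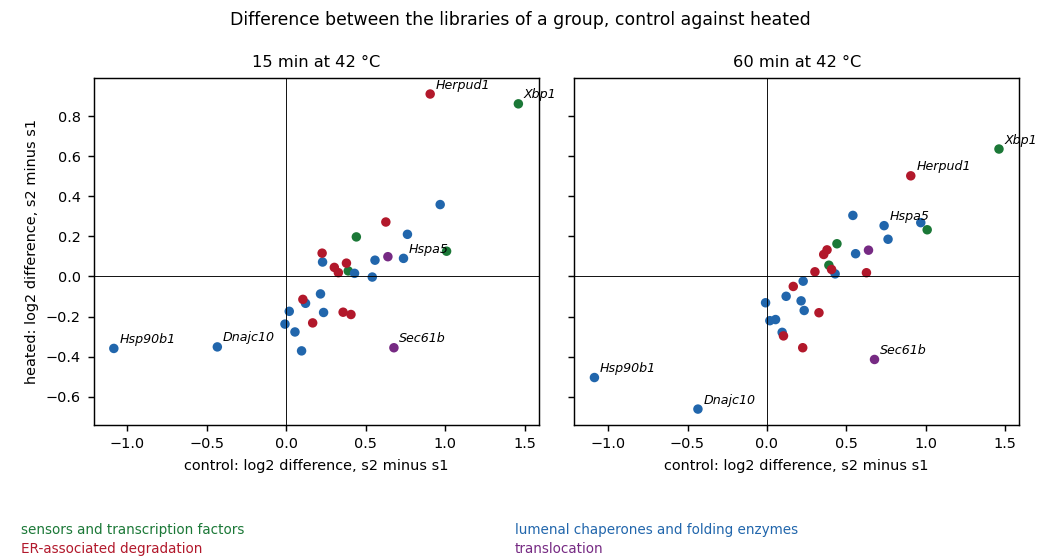
Log2 difference between the s2 and s1 library of control (horizontal) and of the heated group (vertical) for the 32 genes, at 15 min on the left and 60 min on the right, coloured by class. Xbp1 and Herpud1 lie at the upper right in both panels and Hsp90b1 and Dnajc10 at the lower left.

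The changes of genes with and without the ER stress response element were set side by side, with no test. Of the 9 with it, 6 were higher and 3 lower at 60 min against control, with a median of 0.22 and a range of −0.77 (Syvn1) to 0.47 (Hsp90b1). Of the 19 with a window and no exact element, 7 were higher and 12 lower, with a median of −0.072. Of all genes tested 37.3% were higher, with a median of −0.12, or 0.062 over those with a mean of at least 20. At 15 min the medians were −0.014 and 0.15, beside −0.098 over all genes and 0.15 over those with a mean of at least 20. Between 60 and 15 min 7 of the 9 were higher, with a median of 0.15, and 5 of the 19, with a median of −0.16. Of all genes 50.1% were higher there, with a median of 0.00087, or −0.094 over those with a mean of at least 20. The part of abundance in these differences was not tested.

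Of the remaining genes of the pathway, those of the PERK arm and of regulation had the lowest list median at 60 min. Of 16 listed 15 were tested, 0 passed over all genes tested, and the median log2 change was −0.45. At an unadjusted p under 0.05, 6 were lower (40%) and 1 higher (6.67%), against 5.41% and 2.92% of all genes. The list was chosen with earlier results of these data known, so these shares describe it and are not a test of it. Trib3, a pseudokinase target of ATF4 and CHOP, had 19.7 and 47.2 in control and 7.68 and 6.41 at 60 min (adjusted p = 0.359 by limma). Nfe2l1, an ER-bound transcription factor, had 95.1 and 118 in control and 67.5 and 61.5 at 60 min. Txnip, which binds thioredoxin, was the 1 higher gene, with 18.6 and 18.3 in control, 16.04 and 16.98 at 15 min and 37.9 and 31.97 at 60 min. Eif2ak3, the PERK kinase, was at 27.6 to 31.2 in all 6 libraries. Atf4 had 299 and 521 in control and 360 and 370 at 60 min, and Ddit3, which encodes CHOP, 98.8 and 125 in control and 71.3 and 64.1 at 60 min. Wfs1, an ER membrane protein, had 4.18 and 3.91 at 15 min and 2.27 and 1.72 at 60 min.

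At 60 min against control the medians of the other folding and degradation genes lay near 0, and that of the other translocation genes was higher. Of 35 other lumenal folding genes 19 were higher at 60 min (median 0.040), as were 12 of 24 other degradation genes (0.039) and 24 of 31 genes of the translocon, signal peptidase and oligosaccharyl transferase (0.16), and 0 passed over all genes in any comparison. Of the 31, 9 were above both controls at 60 min (29%, against 12.8% of all genes) and 13 at 15 min (41.9%, against 15.1%). Their median log2 change at 15 min was 0.13, beside −0.098 over all genes and 0.15 over those with a mean of at least 20. At 60 min the median over such abundant genes was 0.062. The share of abundant genes above both controls was not counted. This list too was chosen with earlier results of these data known. At an unadjusted p under 0.05, Rpn1 and Ostc, both of the oligosaccharyl transferase, were higher at 60 min (2 of 31, or 6.45%, against 2.92% of all genes). Rpn1 had 105 and 108 in control and 151 and 143 at 60 min, and Ostc 47.9 and 57.9, then 73.0 and 71.1. At 15 min 4 of the 31 were higher at that level (12.9%, against 2.09% of all genes), and the lowest p were those of Srp54a, of the signal recognition particle (223 and 213 in control, 317 and 333 at 15 min), and Sec61g, of the channel (236 and 256, then 372 and 326). Between 60 and 15 min, Srpr, the receptor of that particle, was lower, at 76.8 and 67.5 at 15 min and 48.05 and 51.2 at 60 min.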

How the data were processed

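Total RNA of 6 libraries in 3 groups of 2 was analysed; RNA recovered with ribosomes was not analysed here. Per the labels' protocols, the kit removes ribosomal RNA and reads were single-end. Per the submitters' processing notes, kallisto and sleuth were used with GRCm39; the versions, the annotation, any use of strand and how genes were summed are not stated in those notes. The authors deposited a normalised signal per gene, called TPM in the table's name, whose library totals of 892768 to 1056383 show a further factor of unstated origin. Column names carry the group, but s1 and s2 could not be tied to a sample.

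Values were used as deposited, as log2(value + 1). Genes averaging 1 or more (21954) were fitted with limma 3.58.1 (R 4.3.3) over all 6 libraries, with a mean-variance trend, 3 residual degrees of freedom and two-sided tests, adjusted by Benjamini-Hochberg over all genes. Fold changes on this scale understate the change of low genes. Symbols came from a table of Ensembl IDs, with RefSeq synonyms, and 1 gene of the context lists, Tusc3, is not analysed here. Of 29 promoter windows, 27 ended in bases found in a GENCODE transcript of the gene. The fit was checked on simulated data.

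Members and lists were chosen with earlier results of these data known. Library values are given for genes with an unadjusted p under 0.05, the most abundant gene of each role and all sensors. Hspa5, Hyou1, Calr, Pdia3, Sel1l, Edem1 and Ttr, and the members given only a change or range, were added after their values were seen. Of each context list up to 2 genes per direction with the smallest unadjusted p were named, and always Atf4, Ddit3 and Eif2ak3. Alternatives were other pseudocounts, filters, scalings, limma options, a replicate block, a threshold of 0.1, and each library left out in turn.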

Additional observations from a re-analysis of the deposited data

Results flagged for a closer look

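Dnajb9, which encodes the BiP co-chaperone ERdj4, lay on opposite sides of the controls at the 2 times of heating. It was above both controls at 15 min (log2 change 0.30 ± 0.21, SE) and below both at 60 min (−0.28 ± 0.21). The difference between the times was −0.58, with an unadjusted p of 0.0297 and an adjusted p of 0.745 by limma, so it did not pass over all genes. Such a pattern without overlap was found in 1 of the 32 genes and in 1.47% of all genes tested. Across the alternatives the difference ran from −0.72 to −0.43, with adjusted p from 0.289 to 1.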

How the results depend on the processing

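None of the 32 genes passed the test in any comparison under any of the 19 alternatives, except that Derl3 was not tested with a filter at a mean of 5. The sign of the change was the same in all that tested the gene for 16 genes at 60 min against control, 14 at 15 min and 20 between 60 and 15 min. The number of all genes passed at 60 min against control, 9 as reported, was 5 with a pseudocount of 5 or with no filter, 2 in a fit of only the 4 libraries compared, 28 with median-of-ratios factors over all genes above 0 and 17 at an adjusted p of 0.1. At 15 min it was 7 with those factors, against 0. Between 60 and 15 min, 4 as reported, it was 34 with those factors, 9 with quantile normalisation, 10 without the trend, 0 in a fit of only the 4 libraries and 9 at an adjusted p of 0.1. The cause was not tested. With the same factors the median log2 change at 60 min was 0.14 for the 32 genes, 0.025 for degradation and 0.35 for lumenal genes. At 15 min it was 0.385, 0.30 and 0.52, and 0.66 for translocation. Between 60 and 15 min it was −0.35 for degradation. With quantile normalisation degradation was at −0.025 at 60 min.

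Leaving out each library in turn, which assumes that a lone library varies like the other groups, gave 0 to 146 genes passed at 60 min (146 without control s2 and 48 without control s1), 0 to 216 at 15 min (216 without control s2 and 41 without control s1) and 0 to 2 between 60 and 15 min. The median of the 32 genes ran from −0.21 without control s1 to 0.24 without control s2 at 60 min. Sensors ran from −0.64 to 0.20 and translocation from −0.14 to 0.52. At 15 min sensors ran from −0.58 to 0.25, degradation from −0.15 to 0.16 and translocation from −0.0097 to 0.65.

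With the suffix as a replicate block, 8, 0 and 4 genes passed at 60 min, at 15 min and between them, and 0 of the 32 in each, so the block changed no call of a member. Differences of s2 from s1 correlated between groups at 0.0786 to 0.224 over all genes, 0.436 to 0.644 over the 6772 with a mean of at least 20 and 0.742 to 0.818 over the 32 genes, a hint from the data that same-suffix libraries share something. With only 2 suffixes and no label that ties them, whether the libraries were paired cannot be told. The main fit does not pair them. With 2 libraries a group and unknown depth, changes within the intervals given could not be detected. Syvn1, Herpud1 and Dnajb9, each with an interval that left out 0 in a comparison, did not pass the adjusted threshold either.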
